A study of Mus musculus with 12 samples.

Results

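The major histocompatibility complex (MHC) and antigen processing genes comprised every protein-coding gene whose symbol begins with H2-, together with B2m, Tap1, Tap2, Tapbp, Psmb8, Psmb9, Psmb10, Nlrc5, Ciita and Cd74. These were 50 of the 78298 genes in the deposited table. Of them, 27 had enough reads to be tested, among 18600 tested genes in all. On chromosome 17, 45 of the 50 lie between bases 34134873 and 37794442 in the coordinates of the deposited table, which are those of GRCm39 per the submitters' processing notes. B2m is on chromosome 2, Psmb10 and Nlrc5 are on chromosome 8, Ciita is on chromosome 16 and Cd74 is on chromosome 18.

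The values come from 12 RNA-seq libraries of hippocampal poly(A) RNA, 1 per male C57BL/6 mouse and 4 per group. Treatment mice were exposed for 28 days to chronic unpredictable mild stress (CUMS), in which mild stressors alternate from day to day as a mouse model of depressive behaviour. From day 15 they were also dosed by mouth with poricoic acid A (PAA, also written Poria cocos acid A in the labels), a triterpenoid of the fungus Poria cocos, at 20 mg/kg once a day over 14 days. Model mice had the stress with saline, and Control mice had saline and no stress. The mice were 6 to 8 weeks old when purchased, and PAA was not given to unstressed mice.

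MHC class I molecules consist of a heavy chain and the light chain B2m, and show peptides from inside the cell to CD8 T cells and natural killer cells. The peptides are cut by the proteasome, whose immune subunits Psmb8, Psmb9 and Psmb10 replace constitutive ones, and are carried into the endoplasmic reticulum by Tap1 and Tap2 and loaded with the help of Tapbp. MHC class II molecules show peptides taken up from outside the cell, and in the brain they are known mainly from microglia, border macrophages and dendritic cells. Nlrc5 and Ciita are the transactivators of the class I and class II genes, and interferons raise the expression of most genes of both routes. In mice, neurons also make class I heavy chains, which have been studied for a role in synaptic remodelling.

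The libraries held between 17083260 and 27479083 estimated counts. The library names of Treatment replicates 2 and 3 (1631 and 1636) stand apart from those of the other 10, although the labels give all 12 libraries as batch 1. Values of a group are listed in the order of replicates 1 to 4, and a log2 fold change has the first-named group on top. Summed over 10 markers, choroid plexus epithelium reached 1473 and 1121 CPM (counts scaled to a common library size) in these libraries, against 474 and 506 CPM in Treatment replicates 1 and 4, 606 to 876 CPM in Model and 726 to 2376 CPM in Control. Hippocampal neuron markers summed to 2334 to 2688 CPM in Treatment, 2577 to 2852 CPM in Model and 2254 to 2599 CPM in Control. Markers of neocortical layers summed to 336 to 448 CPM in Treatment, 236 to 320 CPM in Model and 244 to 332 CPM in Control. Microglial markers gave 434 to 491 CPM in Treatment, 384 to 446 CPM in Model and 436 to 464 CPM in Control. Dendritic cell markers gave 16.9 to 17.9 CPM, 17.7 to 19.9 CPM and 15.5 to 20.1 CPM in the same order. Only Flt3 and Zbtb46 of the 8 dendritic cell markers could be tested. Their means were 8.67 and 7.94 CPM in Treatment, 9.72 and 7.93 CPM in Model and 9.27 and 7.49 CPM in Control. The dendritic cell sum was thus mostly that of these 2 genes. Of 104 tested marker genes, 6 were higher and 2 were lower in Treatment against Model at an adjusted p under 0.05, and 1 was higher and 2 were lower in Model against Control.

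Among the 27 tested genes, levels per gene length spanned from 0.205 FPKM for H2-T10 to 95.9 FPKM for B2m as a mean of all 12 libraries. FPKM, as deposited by the authors, is a fragment number scaled by transcript length and library depth. After B2m came the immunoproteasome subunit Psmb10 at 20.6 FPKM and the classical heavy chains H2-K1 at 20.4 FPKM and H2-D1 at 14.6 FPKM. The class II chains H2-Aa, H2-Eb1 and H2-Ab1 had only 1.45, 1.05 and 0.976 FPKM, below their invariant chain Cd74 at 3.06 FPKM and below the class II loading chain H2-DMa, which came next after H2-D1. Psmb10 stood far above the other immune subunits, Psmb8 at 2.37 FPKM and Psmb9 at 0.807 FPKM, and the 2 transactivators Ciita and Nlrc5 were near the bottom at 0.343 and 0.233 FPKM. Of the 26 pairs of neighbours in this order, 25 had ranges over the 12 libraries that overlapped, all but B2m and Psmb10. Within libraries the order was firmer for some of them: H2-D1 was above H2-DMa, Tapbp above H2-T22 and H2-T22 above H2-T23 in 12 of 12 libraries, and H2-K1 above H2-D1 in 11. Psmb10 was above H2-K1 in only 5.

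**Figure D1:**
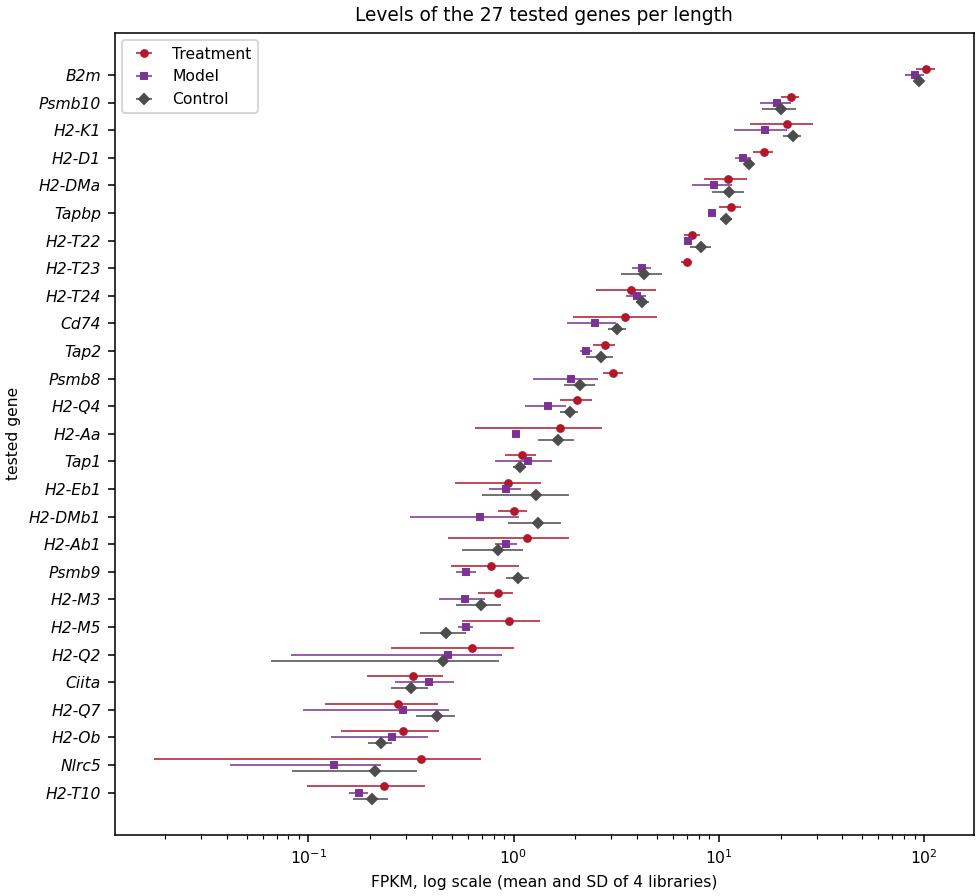
Mean deposited FPKM of the 27 tested MHC and antigen processing genes in the Treatment, Model and Control groups on a log scale, with bars of 1 SD over 4 libraries. B2m stands alone at the top, the Treatment mean of H2-T23 lies to the right of its Model and Control means, and the bars of low genes such as Nlrc5 are wide.

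In Treatment against Model, which asks what PAA did in stressed mice, 24 of the 27 genes had a positive log2 fold change, where 50.4% of all tested genes did. Microglial markers lay the same way, with 12 of 13 positive and a median of 0.18. Of these markers 0 passed in edgeR, 5 were higher at an unadjusted p under 0.05 and DESeq2 called 2. Border macrophage markers had 4 of 6 positive and a median of 0.09, and 0 passed in edgeR. The part of these cells in the values of the 27 was not tested. Only 1 of the 27 passed at an adjusted p under 0.05, the nonclassical class I heavy chain H2-T23, which was 1.64-fold higher, a share of 3.7% where 1.88% of all tested genes passed. At an unadjusted p under 0.05 the genes were H2-D1, H2-K1, H2-Q4, H2-T23, Psmb8 and Tapbp, 6 of 27 or 22.2%, all higher and all of the class I route, where 9.78% of all genes were higher at that level. The median log2 fold change of the 27 was 0.31, against 0.00 for all tested genes. Ciita, H2-Ob and H2-T24 were the 3 genes with a negative value. The libraries of the groups did not overlap for H2-D1, H2-T23 and Tap2, 3 of 27 or 11.1%, all higher, where 5.14% of all genes were higher without overlap.

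In Model against Control, which asks what the stress schedule did, 23 of the 27 genes had a negative log2 fold change, where 52.7% of all tested genes did, and the median was -0.20 against -0.01 for all. A negative value was also found for 11 of 13 microglial markers (median -0.14), but for only 3 of 6 border macrophage markers (median 0.03). Of the microglial markers 0 passed in edgeR, 3 were lower at an unadjusted p under 0.05 and 1 was called by DESeq2. Among the 27 genes none passed in DESeq2, which called 692 of all 18600 genes. None passed in edgeR either, where 0.79% of all tested genes passed. The smallest adjusted p in edgeR was 0.151, for Psmb9. At an unadjusted p under 0.05 there were 3, all lower (H2-DMb1, H2-K1 and Psmb9), a share of 11.1% where 7.85% of all genes were lower at that level. The groups did not overlap for H2-Aa, Psmb9 and Tapbp, again 11.1% and all lower, where 5.46% of all genes were lower without overlap.

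In Treatment against Control DESeq2 called 1 of the 27, H2-T23, and 440 of all 18600 genes. In edgeR 0 of the 27 passed, where 0.102% of all tested genes passed. At an unadjusted p under 0.05 there were 2, H2-D1 and H2-T23, both higher, a share of 7.41% where 7.31% of all genes were higher at that level. The groups did not overlap for H2-D1 and H2-T23, which were higher (3.99% of all genes were), and for Psmb9, which was lower (3.24% of all genes were). Positive values were found for 17 of the 27, against 47.9% of all genes, and the median was 0.07. Treatment against Model and Model against Control share the Model libraries, so a low Model value enters both with opposite signs.

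**Figure D2:**
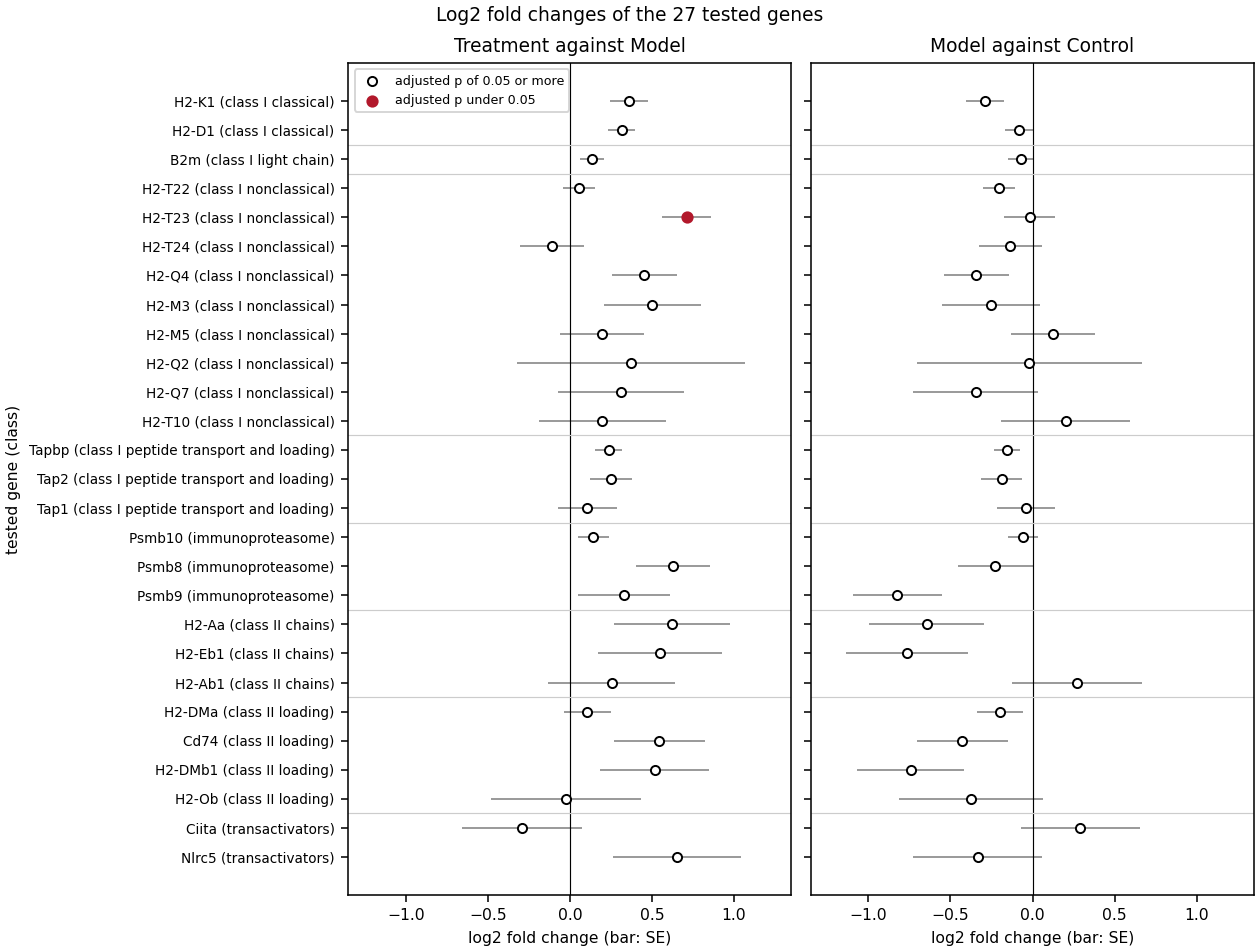
Log2 fold changes of the 27 tested genes, ordered by role, in Treatment against Model on the left and Model against Control on the right, with bars of 1 SE from the edgeR fit. Open circles have an adjusted p of 0.05 or more, and the filled circle is H2-T23 in Treatment against Model. Most circles lie right of 0 on the left and left of 0 on the right.

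H2-T23 (ENSMUSG00000067212, chr17:36340665-36343433) encodes the heavy chain of Qa-1, a nonclassical class I molecule that shows leader peptides of other class I heavy chains to the receptor CD94/NKG2A of natural killer cells. Replicates 1 to 4 had 10.15, 8.51, 8.94 and 8.36 CPM in Treatment, 6.05, 4.52, 5.22 and 6.09 CPM in Model and 4.13, 6.99, 5.71 and 5.31 CPM in Control. All 4 Treatment libraries lay above all 8 others, while Model and Control overlapped throughout. The log2 fold change was 0.71 ± 0.15 (SE) in Treatment against Model (edgeR adjusted p = 0.0301), 0.69 ± 0.15 in Treatment against Control (adjusted p = 0.0841) and -0.02 ± 0.15 in Model against Control (adjusted p = 0.973).

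The size of the H2-T23 difference moved little, from 0.61 to 0.76 over 22 alternative settings, and its adjusted p was under 0.05 in 16 of them. That adjusted p was 0.00125 with DESeq2 and 0.000387 without a low-count filter, but elsewhere it lay near the threshold. It was 0.0526, 0.0704 and 0.0560 without Treatment replicate 1, 2 and 4, 0.117 and 0.105 without Model replicate 2 and 3, and 0.0844 without Treatment replicates 2 and 3 together. With the choroid plexus level as a covariate the log2 fold change was 0.71 ± 0.16 (adjusted p = 0.0353). The long noncoding RNA A930015D03Rik, whose span covers H2-T23, had 9.61 to 15.9 CPM in Treatment, 10.8 to 14.1 CPM in Model and 10.8 to 14.0 CPM in Control, with a log2 fold change of 0.04 ± 0.14 in Treatment against Model (adjusted p = 0.921). Whether the counting used strand is not given in the sources used here, so reads of genes on opposite strands may not be told apart.

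Endothelial, pericyte and neocortical markers were, as sums, higher in the 4 Treatment libraries than in the 8 others, as H2-T23 was. Of 8 neocortical markers 8 were positive in Treatment against Model, with a median of 0.60, and 3 passed: Rspo1 (log2 fold change 1.85 ± 0.35, adjusted p = 0.0217), Cux2 (0.81 ± 0.18, adjusted p = 0.0366) and Lamp5 (0.69 ± 0.16, adjusted p = 0.0430). Of 10 hippocampal neuron markers 2 passed and were lower, Prox1 (-0.43 ± 0.10, adjusted p = 0.0331) and Calb1 (-0.33 ± 0.07, adjusted p = 0.0341). Endothelial markers summed to 241 to 284 CPM in Treatment, 206 to 223 CPM in Model and 193 to 224 CPM in Control, and 2 of 12 passed in Treatment against Model, Pecam1 (log2 fold change 0.57, adjusted p = 0.0256) and Slco1a4 (0.39, adjusted p = 0.0246), with 12 of 12 positive. Pericyte markers gave 203 to 222 CPM in Treatment, 171 to 179 CPM in Model and 177 to 190 CPM in Control, with 0 of 8 passing in edgeR, 6 at an unadjusted p under 0.05 and 3 in DESeq2. For T and natural killer cells there were 10 markers, of which 2 could be tested. The 10 summed to 1.57 to 3.08 CPM in Treatment, 0.979 to 1.54 CPM in Model and 1.16 to 1.77 CPM in Control. Treatment lay above Model without overlap, but only just (1.57 against 1.54 CPM), and overlapped Control. Of the 2 tested, the T cell receptor gene Trbc2 had a log2 fold change of 3.06 ± 0.79 in Treatment against Model (adjusted p = 0.0585). The other, Trac, had -0.09 ± 0.44 (adjusted p = 0.945). Within Treatment, Trbc2 had 2.15, 0.557, 0.101 and 2.07 CPM. The markers of B cells, of which only Ighm could be tested, reached 23.8 CPM in Treatment, 12.0 CPM in Model and 13.8 CPM in Control. Ighm had a log2 fold change of 0.76 ± 0.23 in Treatment against Model (adjusted p = 0.0956). Both lymphocyte lists were highest in Treatment replicates 1 and 4, and their part in the H2-T23 result, like that of the vessel and neocortical markers, was not tested. In bulk tissue a change in the number of cells of a type and a change of RNA per cell cannot be told apart.

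The classical heavy chains H2-K1 and H2-D1, which present most peptides to CD8 T cells, were higher in Treatment than in Model by sizes that missed the threshold. H2-K1 (ENSMUSG00000061232, chr17:34214991-34219263) had 19.0, 23.3, 26.1 and 18.01 CPM in Treatment, 15.4, 15.3, 16.6 and 19.9 CPM in Model and 19.0, 22.1, 20.1 and 20.7 CPM in Control. Model replicates 1 to 3 lay below the other 9 libraries, and Model replicate 4 was within the range of both other groups. The log2 fold change was 0.36 ± 0.12 in Treatment against Model (adjusted p = 0.112), -0.29 ± 0.12 in Model against Control (adjusted p = 0.243) and 0.07 ± 0.11 in Treatment against Control (adjusted p = 0.838).

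H2-D1 (ENSMUSG00000073411, chr17:35481706-35486475) had 26.3, 31.2, 31.5 and 26.1 CPM in Treatment, 23.2, 23.2, 20.7 and 25.3 CPM in Model and 25.1, 22.98, 26.0 and 24.04 CPM in Control. The 4 Treatment libraries lay above the 8 others, by a narrow margin for replicates 1 and 4. For H2-D1 the log2 fold change was 0.31 ± 0.08 in Treatment against Model (adjusted p = 0.0624), -0.08 ± 0.08 in Model against Control (adjusted p = 0.694) and 0.23 ± 0.08 in Treatment against Control (adjusted p = 0.223). In Treatment against Model, DESeq2 called both H2-D1 (adjusted p = 0.0176) and H2-K1 (adjusted p = 0.0498), and so did edgeR without a filter on low counts. Without Treatment replicates 2 and 3 the log2 fold changes shrank to 0.18 ± 0.09 for H2-D1 (adjusted p = 0.391) and 0.14 ± 0.11 for H2-K1 (adjusted p = 0.639).

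The light chain B2m (chr2:121978167-121983564), which every class I molecule needs to reach the surface, had 54.7, 54.6, 66.2 and 62.4 CPM in Treatment, 50.3, 55.8, 50.4 and 60.2 CPM in Model and 57.6, 55.3, 57.0 and 58.1 CPM in Control. The 3 groups overlapped. B2m had a log2 fold change of 0.14 ± 0.07 in Treatment against Model (adjusted p = 0.355), -0.07 ± 0.07 in Model against Control (adjusted p = 0.698) and 0.06 ± 0.07 in Treatment against Control (adjusted p = 0.774). Patl2 overlaps all 5398 bases of B2m in the table's coordinates.

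**Figure D3:**
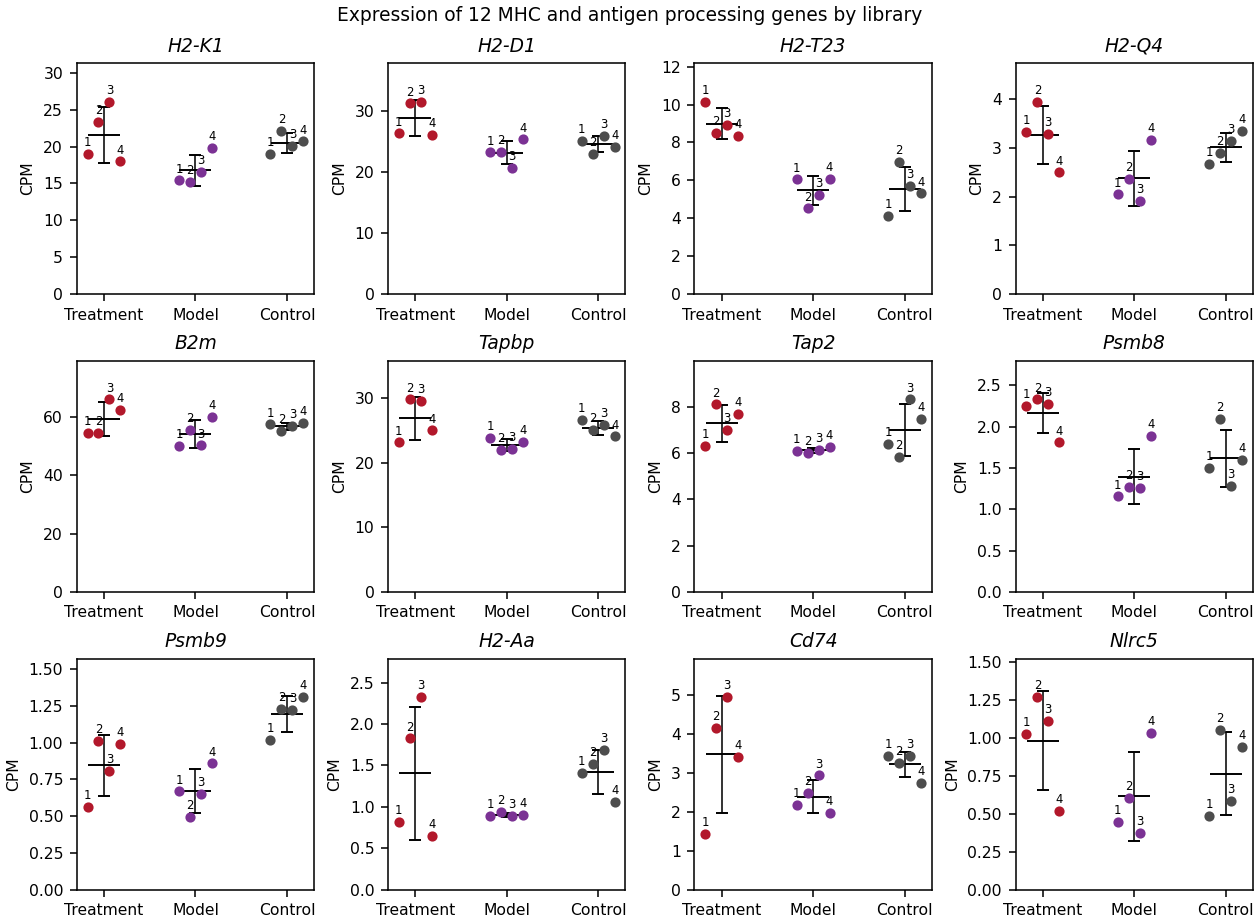
CPM of 12 genes in each library (numbered by replicate), with the mean and 1 SD of each group of 4, for the Treatment, Model and Control groups. All 4 Treatment points of H2-T23 lie above the Model and Control points, Psmb9 is lower in all Treatment and Model libraries than in Control, and in H2-K1, H2-Aa and Cd74 Treatment replicates 2 and 3 lie above replicates 1 and 4.

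The promoters of the heavy chains are shown because these genes make up the class I counts above and share known regulatory elements. Each window runs from 250 bases before to 50 bases after a start site in RefSeq on GRCm38.p6, an earlier build than that of the expression table. Windows were found for 20 of the 27 tested genes. Capitals mark the kappa B site of class I promoters (GGGGA followed by TTCCC), the interferon-stimulated response element (GAAA, any 2 bases, then GAAA), the X box core (AGNAACNG) and the Y box core (CTGATTGG), each searched on both strands with N for any base. The windows below are at chr17:34000284-34000583 on the minus strand for H2-K1, chr17:35262844-35263143 on the plus strand for H2-D1 and chr17:36032652-36032951 on the minus strand for H2-T23.
H2-K1: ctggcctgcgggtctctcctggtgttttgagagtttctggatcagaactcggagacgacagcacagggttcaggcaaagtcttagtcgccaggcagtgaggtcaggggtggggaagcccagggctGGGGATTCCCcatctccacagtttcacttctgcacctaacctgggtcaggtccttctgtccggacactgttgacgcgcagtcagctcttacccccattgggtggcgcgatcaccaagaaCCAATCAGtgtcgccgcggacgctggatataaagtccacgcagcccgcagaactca
H2-D1: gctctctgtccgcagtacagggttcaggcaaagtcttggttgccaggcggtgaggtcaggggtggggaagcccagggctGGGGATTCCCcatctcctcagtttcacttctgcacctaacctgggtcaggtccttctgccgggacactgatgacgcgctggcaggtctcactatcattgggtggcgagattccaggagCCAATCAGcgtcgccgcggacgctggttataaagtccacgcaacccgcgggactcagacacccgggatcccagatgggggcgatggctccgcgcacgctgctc
H2-T23: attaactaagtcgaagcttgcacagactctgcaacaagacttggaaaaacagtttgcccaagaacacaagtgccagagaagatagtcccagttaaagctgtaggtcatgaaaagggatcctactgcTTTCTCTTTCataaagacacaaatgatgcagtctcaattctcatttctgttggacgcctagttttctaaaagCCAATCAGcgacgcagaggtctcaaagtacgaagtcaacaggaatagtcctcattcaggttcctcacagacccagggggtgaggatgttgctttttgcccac

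H2-K1 and H2-D1 each held the kappa B letters and a Y box core, and H2-T23 held the searched interferon letters and a Y box core. Both H2-K1 and H2-D1 hold the stretch tttcacttct, which resembles the interferon element on the other strand but differs from the searched letters. A search for fixed letters misses such variants, so a window without a match may still hold an element. RefSeq has another H2-K1 start whose window is shifted by a few bases and holds the same matches. The kappa B letters were in 0.107% of all 32851 promoter windows and, among the tested genes with a window, in H2-D1, H2-K1 and H2-Q7. The searched interferon letters were in 3.44% of all windows and in those of B2m, H2-T22 and H2-T23. The Y box core was in 4.1% of all windows and in 8 of the 20 (H2-Aa, H2-D1, H2-Eb1, H2-K1, H2-Q7, H2-T23, Psmb9 and Tap1). It contains the CCAAT box, which was in 37.4% of all windows and in 17 of the 20. Of the genes with a kappa B match, H2-Q7 had a log2 fold change of 0.31 ± 0.39 in Treatment against Model. Of those with the searched interferon letters, B2m and H2-T22 had 0.14 ± 0.07 and 0.06 ± 0.10.

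Of the other nonclassical class I genes none passed in any comparison, and all but H2-T22 had a lower mean FPKM than H2-T23. H2-T22 and H2-T10 encode ligands of gamma delta T cells, H2-M3 presents formylated peptides of bacteria, and H2-Q7 encodes Qa-2. H2-Q4 had 2.50 to 3.95 CPM in Treatment, 1.91 to 3.17 CPM in Model and 2.67 to 3.35 CPM in Control, with a log2 fold change of 0.45 ± 0.20 in Treatment against Model (adjusted p = 0.230). H2-T22 had 10.9 to 12.8 CPM in Treatment, 10.96 to 12.0 CPM in Model and 11.5 to 15.2 CPM in Control, and -0.21 ± 0.10 in Model against Control (adjusted p = 0.324). These ranges overlapped in both genes. H2-T24, next to H2-T23, had a log2 fold change of -0.11 ± 0.20 in Treatment against Model, which did not pass, with 4.04 to 9.08 CPM in Treatment, 6.09 to 7.92 CPM in Model and 7.24 to 8.54 CPM in Control.

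H2-M3, H2-M5, H2-Q2, H2-Q7 and H2-T10 had means of 0.353 to 1.29 CPM in every group, and their log2 fold changes in Treatment against Model were 0.50 ± 0.29, 0.20 ± 0.25, 0.37 ± 0.69, 0.31 ± 0.39 and 0.20 ± 0.39. H2-Q2 was the most uneven of them, with 0.308 to 1.06 CPM in Treatment, 0 to 0.815 CPM in Model and 0.194 to 1.01 CPM in Control. The H2-Q and H2-T genes are close copies of each other, so reads may have been assigned to the wrong one. The estimated counts show where reads were shared between genes, since a count that is not whole within 0.05 was divided. H2-T22 had such counts in 12 of 12 libraries, H2-K1 in 2, H2-D1 in 3 and H2-T23 in 1.

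Of the genes that carry and load peptides, none passed in any comparison, and Tap2 and Tapbp were separated without overlap in 1 comparison each. Tapbp, the tapasin that holds empty class I molecules at the peptide transporter (chr17:34134873-34139389), had 23.1, 29.8, 29.5 and 25.0 CPM in Treatment, 23.9, 21.9, 22.1 and 23.2 CPM in Model and 26.6, 25.1, 25.8 and 24.1 CPM in Control. Every Model library lay below every Control library, and Treatment replicates 2 and 3 were the highest of all. The log2 fold change was 0.24 ± 0.08 in Treatment against Model (adjusted p = 0.134), -0.16 ± 0.08 in Model against Control (adjusted p = 0.382) and 0.08 ± 0.08 in Treatment against Control (adjusted p = 0.716). It was 0.08 ± 0.08 in Treatment against Model without Treatment replicates 2 and 3. Tapbp counts were not whole in 11 of 12 libraries, and those of the overlapping Gm19412 were not whole in 11 as well, while those of Zbtb22, which also overlaps it, were whole in all.

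Tap2 (chr17:34422501-34435295), a chain of the peptide transporter, had 6.31, 8.11, 7.02 and 7.71 CPM in Treatment, 6.09, 6.00, 6.15 and 6.26 CPM in Model and 6.41, 5.83, 8.33 and 7.48 CPM in Control. The Model values were almost equal and lay just below those of Treatment, while Control spread over both. Its log2 fold change was 0.25 ± 0.13 in Treatment against Model (adjusted p = 0.302), -0.19 ± 0.13 in Model against Control (adjusted p = 0.517) and 0.06 ± 0.12 in Treatment against Control (adjusted p = 0.884). Tap1 (chr17:34406527-34416199), the other chain, had 3.13, 3.04, 3.43 and 2.24 CPM in Treatment, 3.34, 2.75, 2.52 and 2.36 CPM in Model and 3.01, 2.50, 2.97 and 2.82 CPM in Control. Its groups overlapped in full, with log2 fold changes of 0.11 ± 0.18, -0.04 ± 0.18 and 0.07 ± 0.18 in the 3 comparisons in the same order (adjusted p = 0.810, 0.948 and 0.916).

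Tap1 and Psmb9 are divergent neighbours with 225 bases between their RefSeq start sites, and their promoter windows share 275 bases. The window of Tap1 at chr17:34187306-34187605 on the plus strand is shown since the same stretch, read on the other strand, is the promoter of Psmb9, with the single Y box core in capitals.
Tap1: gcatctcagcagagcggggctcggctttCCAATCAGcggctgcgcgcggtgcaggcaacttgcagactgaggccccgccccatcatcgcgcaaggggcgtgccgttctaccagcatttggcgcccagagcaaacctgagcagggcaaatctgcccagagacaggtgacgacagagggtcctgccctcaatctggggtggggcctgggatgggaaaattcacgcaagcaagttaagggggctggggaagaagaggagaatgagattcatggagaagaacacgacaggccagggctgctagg

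Despite this shared stretch the genes had different values in Model against Control, -0.82 ± 0.27 for Psmb9 and -0.04 ± 0.18 for Tap1. The difference between them was not tested. In the coordinates of the deposited table the spans of the 2 genes overlap by 212 bases, and whether the counting used strand is not given. Psmb9 (chr17:34400961-34406738), the immune counterpart of the proteasome subunit Psmb6, had 0.564, 1.01, 0.808 and 0.991 CPM in Treatment, 0.667, 0.496, 0.652 and 0.858 CPM in Model and 1.02, 1.23, 1.22 and 1.31 CPM in Control. Every Control library was above the 8 others, though Control replicate 1 exceeded Treatment replicate 2 by very little, and Treatment and Model overlapped. The adjusted p was 0.151 in Model against Control, with counts of only 9 to 34 per library. In Treatment against Control its log2 fold change was -0.50 ± 0.27 (adjusted p = 0.428), and in Treatment against Model it was 0.33 ± 0.28 (adjusted p = 0.585).

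Psmb8 (chr17:34416695-34420179), the immune counterpart of Psmb5, had 2.26, 2.33, 2.27 and 1.81 CPM in Treatment, 1.16, 1.27, 1.26 and 1.89 CPM in Model and 1.505, 2.10, 1.28 and 1.59 CPM in Control. Treatment replicates 1 to 3 were above all 9 other libraries, and Treatment replicate 4 was just below Model replicate 4. Its log2 fold change was 0.63 ± 0.22 in Treatment against Model (adjusted p = 0.146), -0.23 ± 0.23 in Model against Control (adjusted p = 0.692) and 0.40 ± 0.22 in Treatment against Control (adjusted p = 0.442). Psmb10 (chr8:106662367-106663657), the immune counterpart of Psmb7, had 14.0, 12.8, 15.7 and 17.1 CPM in Treatment, 13.2, 13.3, 13.4 and 14.1 CPM in Model and 14.5, 15.1, 12.8 and 13.7 CPM in Control. Its groups overlapped, with log2 fold changes of 0.14 ± 0.09, -0.06 ± 0.09 and 0.09 ± 0.09 (adjusted p = 0.442, 0.824 and 0.742) in Treatment against Model, Model against Control and Treatment against Control.

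Set against their constitutive counterparts on the FPKM scale, the immune subunits took different shares. Psmb8 had 0.0303 to 0.0434 of the level of Psmb5 in Treatment, 0.0148 to 0.0297 in Model and 0.0206 to 0.0300 in Control. On this scale the Treatment libraries were thus above all others, by a very narrow margin, but this order did not hold on the CPM scale. Psmb10 had 0.321 to 0.371 of the level of Psmb7 in Treatment, 0.214 to 0.311 in Model and 0.217 to 0.288 in Control, again with Treatment above the rest. Psmb9 had 0.00557 to 0.0137 of the level of Psmb6 in Treatment, 0.00643 to 0.00802 in Model and 0.0105 to 0.0149 in Control, where Model and Control did not overlap. These ratios are a description without a test. None of the constitutive subunits passed in edgeR in Treatment against Model, with 2 of 3 lower at an unadjusted p under 0.05 and 0 called by DESeq2, and their values were -0.20 ± 0.08 for Psmb7 (adjusted p = 0.198) and -0.19 ± 0.08 for Psmb5 (adjusted p = 0.240).

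Neither transactivator passed, and both were at the low end of what could be measured. Nlrc5 (chr8:95160984-95196636), which drives class I genes, had 1.03, 1.27, 1.11 and 0.517 CPM in Treatment, 0.445, 0.606, 0.373 and 1.03 CPM in Model and 0.485, 1.05, 0.582 and 0.940 CPM in Control. Treatment replicates 1 to 3, Model replicate 4 and Control replicate 2 were its 5 highest libraries, and they were also the 5 highest for Psmb8. Nlrc5 had a log2 fold change of 0.65 ± 0.39 in Treatment against Model (adjusted p = 0.392), -0.33 ± 0.39 in Model against Control (adjusted p = 0.743) and 0.32 ± 0.38 in Treatment against Control (adjusted p = 0.769). Ciita (chr16:10297923-10344290), which drives class II genes, had 1.28, 1.52, 0.556 and 0.474 CPM in Treatment, 1.29, 0.826, 1.68 and 0.858 CPM in Model and 1.02, 1.09, 0.873 and 0.818 CPM in Control. The groups overlapped, and the log2 fold changes were -0.29 ± 0.37 in Treatment against Model (adjusted p = 0.733), 0.29 ± 0.36 in Model against Control (adjusted p = 0.761) and -0.0026 ± 0.36 in Treatment against Control (adjusted p = 0.999).

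The class II chains and Cd74 varied widely within Treatment, and no class II gene passed in any comparison. H2-Aa (chr17:34501718-34506797), an alpha chain, had 0.820, 1.82, 2.32 and 0.646 CPM in Treatment, 0.890, 0.937, 0.885 and 0.901 CPM in Model and 1.41, 1.52, 1.69 and 1.06 CPM in Control. Every Model library was below every Control library, and Treatment was split, with replicates 2 and 3 above Control and replicates 1 and 4 below Model. H2-Aa had a log2 fold change of 0.63 ± 0.35 in Treatment against Model (adjusted p = 0.367), -0.64 ± 0.35 in Model against Control (adjusted p = 0.401) and -0.02 ± 0.34 in Treatment against Control (adjusted p = 0.990).

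H2-Eb1 (chr17:34524841-34535648), a beta chain, had 0.615, 1.32, 1.46 and 0.474 CPM in Treatment, 0.712, 0.606, 0.746 and 0.558 CPM in Model and 1.12, 1.59, 1.05 and 0.695 CPM in Control. The same split of Treatment is seen, with replicates 2 and 3 among the Control values and replicate 4 the lowest of all. Its log2 fold change was 0.55 ± 0.38 in Treatment against Model (adjusted p = 0.477), -0.77 ± 0.37 in Model against Control (adjusted p = 0.335) and -0.22 ± 0.36 in Treatment against Control (adjusted p = 0.849). H2-Ab1 (chr17:34476663-34486589), the partner of H2-Aa, had 0.410, 1.01, 1.92 and 0.776 CPM in Treatment, 0.979, 0.992, 0.792 and 0.686 CPM in Model and 0.922, 0.688, 0.815 and 0.450 CPM in Control. It did not share the low Model level of H2-Aa, with log2 fold changes of 0.26 ± 0.39, 0.27 ± 0.40 and 0.53 ± 0.39 (adjusted p = 0.788, 0.804 and 0.601) in Treatment against Model, Model against Control and Treatment against Control.

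The invariant chain Cd74, which guards the class II groove until it reaches the endosome, had 1.44, 4.16, 4.95 and 3.404 CPM in Treatment, 2.18, 2.48, 2.94 and 1.97 CPM in Model and 3.45, 3.26, 3.43 and 2.74 CPM in Control. Treatment replicates 2 and 3 were the highest of the 12 libraries and Treatment replicate 1 the lowest. Cd74 had a log2 fold change of 0.55 ± 0.28 in Treatment against Model (adjusted p = 0.304), -0.43 ± 0.28 in Model against Control (adjusted p = 0.493) and 0.12 ± 0.27 in Treatment against Control (adjusted p = 0.902). Without Treatment replicate 1 it passed in Treatment against Model, at 0.80 ± 0.19 (adjusted p = 0.0449), and without Treatment replicates 2 and 3 it was at 0.04 ± 0.29 (adjusted p = 0.977). In the same comparison without replicates 2 and 3 the chains changed sign, to -0.30 ± 0.32 for H2-Aa, -0.27 ± 0.42 for H2-Eb1 and -0.51 ± 0.42 for H2-Ab1.

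H2-DMa and H2-DMb1 form the molecule that exchanges the invariant chain peptide for antigen, and H2-Ob belongs to its inhibitor. H2-DMb1 had 0.872 to 1.34 CPM in Treatment, 0.441 to 1.351 CPM in Model and 1.02 to 1.51 CPM in Control, with a log2 fold change of -0.74 ± 0.33 in Model against Control (adjusted p = 0.285). Model replicates 2 and 4 were its lowest libraries, and the groups overlapped. H2-DMa had 7.04 to 10.25 CPM in Treatment, 6.76 to 9.53 CPM in Model and 7.92 to 11.04 CPM in Control. H2-Ob had 0.202 to 0.667 CPM in Treatment, 0.186 to 0.601 CPM in Model and 0.485 to 0.654 CPM in Control, and it was low in Treatment replicates 2 and 3, where the chains were high.

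The class II promoters of H2-Aa, at chr17:34287774-34288073 on the minus strand, and of H2-Eb1, at chr17:34305617-34305916 on the plus strand, are shown for comparison with the class I windows. Capitals mark the same letters as above.
H2-Aa: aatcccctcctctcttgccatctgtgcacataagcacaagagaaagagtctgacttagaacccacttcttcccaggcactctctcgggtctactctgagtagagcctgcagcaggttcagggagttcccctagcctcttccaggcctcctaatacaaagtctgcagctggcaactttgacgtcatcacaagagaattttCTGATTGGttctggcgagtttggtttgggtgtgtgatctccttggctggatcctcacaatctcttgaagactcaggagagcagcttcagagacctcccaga
H2-Eb1: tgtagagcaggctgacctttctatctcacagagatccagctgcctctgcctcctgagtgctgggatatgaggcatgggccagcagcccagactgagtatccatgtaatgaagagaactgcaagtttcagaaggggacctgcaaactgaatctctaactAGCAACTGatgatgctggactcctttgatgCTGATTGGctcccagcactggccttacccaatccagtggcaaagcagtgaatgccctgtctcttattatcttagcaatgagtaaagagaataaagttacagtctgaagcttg

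H2-Eb1 held an X box core followed by a Y box core, and H2-Aa held the Y box core but not the searched letters of the X box. The X box core was in 17.4% of all windows and, among the tested genes with a window, in H2-DMb1, H2-Eb1, H2-M3 and Psmb8. The gamma-activated site (TTCNNNGAA), another interferon element, was in 8.3% of all windows and in those of H2-M3 and Psmb8.

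The sum of H2-Aa, H2-Ab1, H2-Eb1 and Cd74 was set beside the choroid plexus markers, because that tissue adjoins the hippocampus and is known to hold class II cells. The class II sum was 3.28, 8.31, 10.7 and 5.30 CPM in Treatment, 4.76, 5.01, 5.36 and 4.12 CPM in Model and 6.89, 7.06, 6.99 and 4.95 CPM in Control. The choroid plexus sum over its 10 markers was 474, 1473, 1121 and 506 CPM in Treatment, 606, 661, 876 and 649 CPM in Model and 1777, 2180, 2376 and 726 CPM in Control. The 5 libraries with the highest choroid plexus sum were also the 5 with the highest class II sum. Within Control, replicate 4 was the lowest in both. The part of the choroid plexus in the class II values was not tested, and the covariate given next cannot separate it from the difference between Model and Control.

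With the choroid plexus level as a covariate, a setting chosen after seeing the data, H2-Aa, H2-Eb1 and Cd74 lost their negative sign in Model against Control. Their log2 fold changes were 0.16 ± 0.36, 0.15 ± 0.38 and 0.09 ± 0.30. H2-Ab1 was positive in that comparison without the covariate and under all 21 alternatives run for it. With the covariate Psmb9 kept -0.77 ± 0.36 (adjusted p = 0.509), and H2-K1 had -0.13 ± 0.14. Of the 27 genes, 17 then had a negative value in Model against Control, with a median of -0.12. The choroid plexus sum was 606 to 876 CPM in Model and 726 to 2376 CPM in Control, where only replicate 4 lay in the Model range. In this comparison the covariate and the groups therefore cannot be told apart. In Treatment against Model 25 of the 27 had a positive value with the covariate, with a median of 0.28. All 10 choroid plexus markers were lower in Model than in Control at an unadjusted p under 0.05, and 1 of them passed, Sostdc1 (log2 fold change -1.21 ± 0.26, adjusted p = 0.0469).

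**Figure D4:**
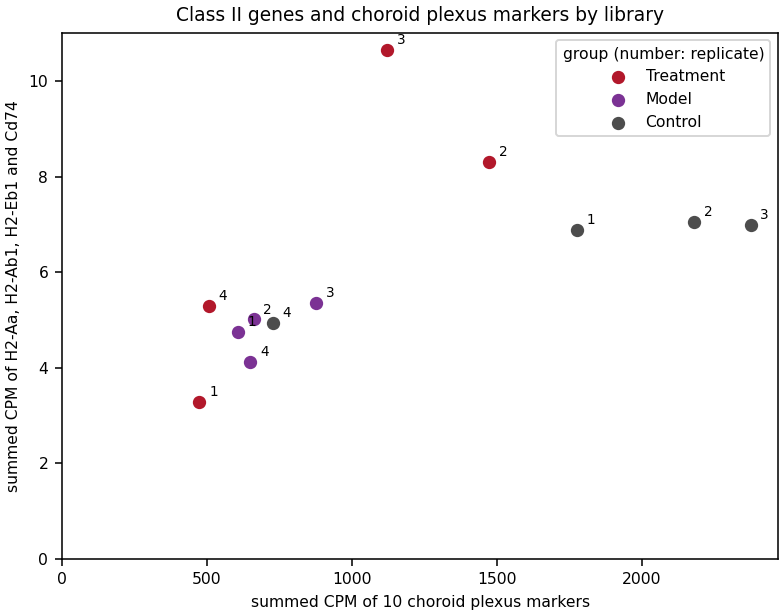
Summed CPM of H2-Aa, H2-Ab1, H2-Eb1 and Cd74 against the summed CPM of 10 choroid plexus markers, 1 point per library, numbered by replicate, for Treatment, Model and Control. Treatment replicates 2 and 3 and Control replicates 1 to 3 lie to the right with class II sums of 6.89 to 10.7 CPM, and the other 7 libraries lie to the left with 3.28 to 5.36 CPM.

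Across libraries the genes did not move as a single block. Treatment replicate 3 was the highest library for 10 of the 27 genes, Treatment replicates 1 and 2 for 4 each and Treatment replicate 4 for 2. The Model libraries were the highest for 1 gene, Ciita in replicate 3, and Control libraries for 6. Treatment replicates 2 and 3 were both above replicates 1 and 4 for 10 of the 27 genes (Cd74, H2-Aa, H2-Ab1, H2-D1, H2-Eb1, H2-K1, H2-T10, Nlrc5, Psmb8 and Tapbp), or 37%, where 15% of all tested genes had that order. They were both below for H2-Ob alone, or 3.7%, where 14.4% of all tested genes were. Without these 2 libraries the median log2 fold change of the 27 in Treatment against Model was 0.14, with 20 positive, and in Treatment against Control it was -0.05, with 12 positive.

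**Figure D5:**
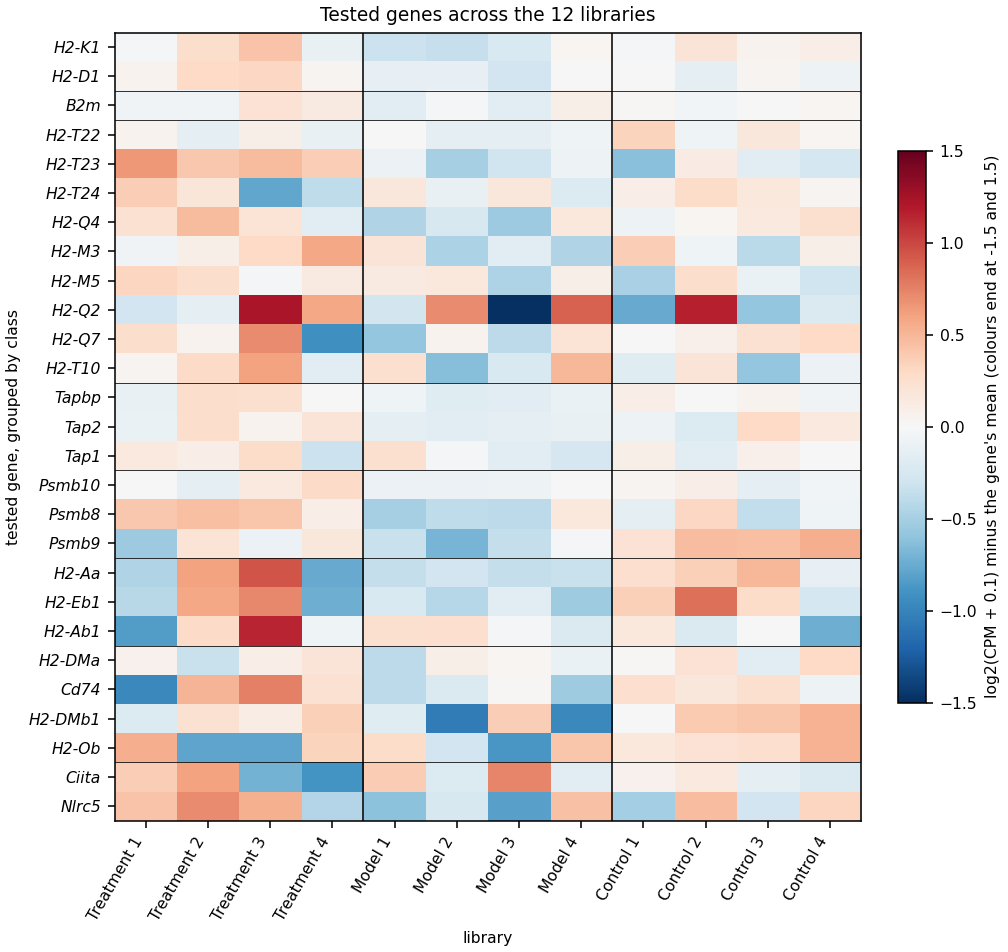
Log2(CPM + 0.1) of each tested gene minus its mean over the 12 libraries, with genes in rows by role and Treatment, Model and Control libraries in columns, and colours that end at -1.5 and 1.5. H2-T23 is high in all 4 Treatment libraries, whereas H2-Aa and H2-Eb1 are high in Treatment replicates 2 and 3 and in Control replicates 1 to 3.

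The other genes of the pathway were taken from 11 lists with 122 tested genes. In Treatment against Model 2 of them passed as higher and 0 as lower, where 1.88% of all tested genes passed. At an unadjusted p under 0.05, 22 were higher and 6 lower, where 9.78% and 8.69% of all tested genes were. DESeq2 called 3 of them and 1099 of all 18600 genes. In Model against Control 2 passed as higher and 0 as lower, where 0.79% of all tested genes passed. At an unadjusted p under 0.05, 8 were higher and 15 lower, where 7.72% and 7.85% of all tested genes were. DESeq2 called 5 of the pathway genes and 692 of all 18600 genes. In Treatment against Control 0 passed in edgeR, where 0.102% of all tested genes passed. At an unadjusted p under 0.05, 13 were higher and 6 lower, where 7.31% and 6.56% of all tested genes were. DESeq2 called 4 of the pathway genes and 440 of all 18600 genes. Those that passed in edgeR in Treatment against Model were Rela and Lgmn, both higher. Rela, a subunit of NF-kappa B, had a log2 fold change of 0.40 ± 0.08 (adjusted p = 0.0305, 1 of 15 promoter factors). Lgmn, an endosomal protease, had 0.24 ± 0.06 (adjusted p = 0.0408, 1 of 7 class II proteases and reductase). Those that passed in edgeR in Model against Control were Calr and Hspa5, both higher and 2 of 8 loading partners. Calr, a chaperone of the class I loading complex, had 0.44 ± 0.08 (adjusted p = 0.0277). Hspa5 (BiP), which binds unfolded proteins in the endoplasmic reticulum, had 0.81 ± 0.15 (adjusted p = 0.0219). Neither fell by an amount that passed in Treatment against Model (-0.13 ± 0.08 and -0.31 ± 0.15).

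Interferon-stimulated genes summed to 120 to 172 CPM in Treatment, 119 to 135 CPM in Model and 134 to 147 CPM in Control. None of the 25 tested passed in Treatment against Model in edgeR or DESeq2, 5 were higher at an unadjusted p under 0.05, 20 were positive and the median was 0.28, where 9.78% of all tested genes were higher at that level and 50.4% were positive. Irf7, an interferon regulatory factor, had 0.83 ± 0.26 (adjusted p = 0.107), and Ifit3, an antiviral effector, had 0.33 ± 0.15 (adjusted p = 0.251). The 10 interferon receptor and signalling genes had 5 positive and 5 negative values, and 0 passed in edgeR, 1 was higher and 2 were lower at an unadjusted p under 0.05, and DESeq2 called 1.

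The genes that lie in the MHC region without an H2 name share the position of the H2 genes. Of 34 tested, 0 passed in Treatment against Model in edgeR or DESeq2, 10 were higher at an unadjusted p under 0.05, 28 were positive and the median was 0.12, beside the same shares of all genes, 9.78% and 50.4%. In Model against Control 26 of the 34 were negative, where 52.7% of all genes were, with a median of -0.09. Among the class I-like genes outside the H2 names, Mr1 and Hfe had -0.47 ± 0.16 (adjusted p = 0.162) and -0.51 ± 0.16 (adjusted p = 0.141) in Model against Control, and 0 of 4 passed in edgeR, 2 were lower at an unadjusted p under 0.05 and DESeq2 called 0. The proteasome activators and assembly factors, the receptors for class I and the costimulatory ligands had 0 of 5, 0 of 4 and 0 of 7 passing in Treatment against Model, with 0, 0 and 2 at an unadjusted p under 0.05 and 0 in DESeq2.

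The remaining 23 genes had too few reads for a test. H2-Ea, the class II alpha chain that C57BL/6 mice are known not to make, had no counts in any library, and neither did H2-M1, H2-M2, H2-M9, H2-M10.1, H2-M10.3, H2-M10.4, H2-M10.5, H2-M10.6, H2-M11, H2-T3 and H2-T5. A count of 0 allows up to 3 counts in a library of this depth. H2-Q6, H2-Oa and H2-DMb2 had counts in all 12 libraries, of 1 to 17, 2 to 14 and 1 to 9 per library. H2-Q1 and H2-T13 were seen in 10 libraries with at most 19 and 10 counts. H2-M10.2, H2-Q5 and H2-Q10 were seen in 8, 5 and 4 libraries, and H2-T9, H2-T15 and H2-Eb2 in 1 library each with at most 2 counts.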

How the data were processed

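The deposited table holds, per gene and library, estimated counts and FPKM made by the authors from paired reads of 12 hippocampal libraries. Per the submitters' processing notes the tools included Salmon 1.10.1, STAR 2.7.10a and Trim Galore 0.6.7 (with cutadapt 3.4), besides FastQC 0.12.1, and the mouse build was GRCm39. The strand setting is not given in the sources used here, and 19.4% of the nonzero deposited estimated counts were not whole within 0.05. The FPKM values, deposited by the authors, were used for levels, ratios and an alternative fit.

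Estimated counts were rounded and tested with edgeR 4.0.16 (quasi-likelihood, TMM scaling, filterByExpr, 1 model of all 12 libraries, Benjamini-Hochberg adjustment over 18600 genes, threshold 0.05) in R 4.3.3, and CPM values were taken on the same scaled libraries. The procedure was tested on simulated data. The SE of a log2 fold change was derived from the F statistic. Alternatives used DESeq2 1.42.0, limma 3.58.1 on log2(FPKM + 0.1) and log2(FPKM + 1) for genes with at least 0.5 FPKM in 4 libraries, other scalings and filters, a replicate block, left-out libraries and, chosen after seeing the data, a choroid plexus covariate. Groups follow the labels, and p-values rest on the spread between the 4 mice of each group, pooled over all 12 libraries. All members were named, those that passed and a core of main pathway genes with the value in each library, and of each related list up to 4 genes of smallest p that passed or, where none did, up to 2. The members and the gene lists were chosen with earlier results of these data known. Depth was 17083260 to 27479083 estimated counts per library, and the limit behind a count of 0 covers counting error only.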

Additional observations from a re-analysis of the deposited data

Results flagged for a closer look

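Among the 27 tested genes and 3 groups, 4 of 81 groups of 4 libraries held a library far from the other 3, and chance gives about 1 in 20. Psmb8 had 1.81 CPM in Treatment replicate 4, below 2.26 to 2.33 CPM in the other Treatment libraries. Psmb8 also had 1.89 CPM in Model replicate 4, above 1.16 to 1.27 CPM in the other Model libraries, so that each of these libraries lay toward the other group. H2-M5 had 0.792 CPM in Model replicate 3, below the other Model libraries, which reached 1.27 CPM. H2-Q2 had 1.01 CPM in Control replicate 2, above 0.194 to 0.327 CPM in the other Control libraries.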

How the results depend on the processing

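Each of the 81 log2 fold changes of the 27 genes was recomputed under 17 to 22 alternatives, since low genes dropped out of some, and 50 kept their sign under all that were run for them, while 5 changed their call under at least 1. The number of these genes that passed in Treatment against Model was 1, against 3 with DESeq2 and 3 without a low-count filter (H2-D1, H2-K1 and H2-T23), 0 without Treatment replicates 2 and 3, and 0 to 1 when 1 library was left out. In Treatment against Control it was 0, against 1 with DESeq2 and 1 without a filter (H2-T23), and in Model against Control it was 0 throughout. Over all genes, Model against Control gave 147 calls, against 692 with DESeq2, 783 without a filter, 452 when fitted on 8 libraries alone, 284 without Treatment replicates 2 and 3, 5 and 5 with limma on FPKM at both pseudocounts, 3 with the choroid plexus covariate, and 8 (without Control replicate 1) to 273 with 1 library left out. Treatment against Model gave 350 calls, against 1099 with DESeq2, 1090 without a filter, 137 with 8 libraries, 132 without Treatment replicates 2 and 3, 114 and 111 with limma, and 0 (without Model replicate 2 or 3) to 459 with 1 library left out. Treatment against Control gave 19 calls, against 12 with RLE scaling, 440 with DESeq2, 748 without a filter, 2 with 8 libraries, 130 without Treatment replicates 2 and 3, 9 with limma at a pseudocount of 1, 0 with the covariate, and 0 to 73 with 1 library left out. With a replicate block the calls were 228 in Model against Control and 118 in Treatment against Control, and H2-T23 had an adjusted p of 0.0431 in Treatment against Model. The replicate numbers share only a number, since same-numbered libraries had correlations of deviations of -0.04 to 0.11. The cause of these shifts was not tested. Low counts limit Psmb9, Nlrc5, Ciita and the class II chains, whose SE reached 0.27 to 0.40.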
